A study of Homo sapiens with 6 samples.

Results

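Interleukin 6 family signalling was followed through 10 genes in the breast cancer line MDA-MB-231 and in 2 isolates made from it. The genes were the ligands IL6, IL11 and LIF, the receptors IL6R, IL6ST, OSMR and LIFR, the signal transducers JAK1 and STAT3, and the feedback inhibitor SOCS3. They were chosen by symbol, and every probe set annotated to 1 of these symbols was taken, which gave 19 of the 22277 probe sets and 10 of the 11963 named genes. On these arrays 16 of the 19 probe sets, standing for 9 of the 10 genes, had a mean signal above the filter of 44 units described with the processing. Total RNA had been measured on 6 Affymetrix arrays, 2 for S1a, 2 for S1b and 2 for parental MDA-MB-231, a human triple-negative line with mesenchymal traits. The labels describe S1a and S1b as isolated seeder cell populations, numbered 1 and 2, that is, tumour cells able to return to an existing tumour. All 3 populations were grown subconfluent in DMEM with 10% FBS, and the labels name no treatment and no genetic change in any of them. No isolated population of other cells was measured, so seeding cannot be told apart from other effects of isolation. Each pair of arrays is titled as biological replicates, but no separate cultures are named, and the p-values below therefore measure only the spread between these arrays. Published work on these populations studied IL6 as an attractant of circulating tumour cells, so the gene was not an independent choice.

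Cytokines of this family bind a receptor of their own and then recruit the shared chain gp130, the product of IL6ST. OSMR and LIFR are signalling chains that pair with gp130 for oncostatin M and for leukaemia inhibitory factor, whereas IL6R and the receptor of interleukin 11 carry the ligand to gp130. Janus kinases bound to the chains, JAK1 foremost, phosphorylate STAT3, which enters the nucleus and induces its targets. SOCS3 is one of these targets and binds gp130 and the kinases to end the signal. In breast cancer the family is known for autocrine growth and survival signals, and IL11 for its part in bone metastasis.

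The promoter windows of IL6, IL11 and OSMR are shown because these 3 genes passed the test below and their windows held a searched motif. They are from RefSeq (GRCh38.p14), cover 250 bases before to 50 bases after a gene's start, run 5′ to 3′ on the gene's strand, and have the motif in capitals. Windows were found for 9 of the 10 genes, 14 in all. IL6 is at chr7:22726950-22727249 on the plus strand, IL11 at chr19:55370414-55370713 on the minus strand and OSMR at chr5:38845762-38846061 on the plus strand.
IL6: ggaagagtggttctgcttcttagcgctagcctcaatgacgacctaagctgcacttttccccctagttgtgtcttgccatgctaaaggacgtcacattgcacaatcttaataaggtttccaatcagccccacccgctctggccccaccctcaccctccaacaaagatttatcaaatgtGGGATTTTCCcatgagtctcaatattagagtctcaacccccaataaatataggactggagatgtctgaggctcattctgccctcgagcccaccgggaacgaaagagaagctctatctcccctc
IL11: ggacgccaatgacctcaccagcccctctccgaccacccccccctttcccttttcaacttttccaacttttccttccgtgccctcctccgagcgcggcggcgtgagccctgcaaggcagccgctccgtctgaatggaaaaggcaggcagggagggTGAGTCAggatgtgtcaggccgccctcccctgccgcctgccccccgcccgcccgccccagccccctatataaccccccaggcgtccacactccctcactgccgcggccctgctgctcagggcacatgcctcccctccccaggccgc
OSMR: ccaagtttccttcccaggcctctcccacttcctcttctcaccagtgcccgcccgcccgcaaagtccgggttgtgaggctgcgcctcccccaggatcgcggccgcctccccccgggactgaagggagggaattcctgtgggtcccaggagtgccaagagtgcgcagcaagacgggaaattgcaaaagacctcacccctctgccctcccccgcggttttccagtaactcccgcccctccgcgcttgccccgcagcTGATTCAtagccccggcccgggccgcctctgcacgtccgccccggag
The IL6 match is to the NF-kappa B motif (GGGA, any base, then TTTCC), 73 bases before the start, which 0.558% of the 35116 RefSeq windows of this length held on either strand. The matches of IL11, 96 bases before the start, and of OSMR, 3 bases after it, are to the AP-1 motif TGANTCA, held by 7.71% of windows. The STAT motif TTCNNNGAA, held by 7.66% of windows, was found in 2 windows of LIFR. IL6R had an AP-1 match, and the windows of IL6ST, STAT3, JAK1 and SOCS3 held none of the 3 motifs. None of the printed matches overlaps another searched motif. A match describes these letters only.

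Of the 7 markers of the line, 6 lay above the filter on every array, and the summed signal of the list was 50519 to 56559 on the isolates' arrays and 57262 to 61667 on the parental arrays. The remaining marker, SPARC, was above it in S1b alone, at 394 and 367 units, with 35 and 39 in S1a and 37.1 and 39.6 in parental. Vimentin was among the brightest at 18446 to 21386 on the isolates' arrays, against 21208 and 27237 on the parental arrays. ERBB2 and EPCAM, which the line should lack or hold at low levels, were above the filter on every array. ESR1, on the same list, passed by its mean over the 6 arrays, but not on every array. It had 18.3 and 31.3 units in S1a, 23.6 and 82.1 in S1b, and 61.5 and 48.2 in parental. CDH1 and PGR were below the filter. Of fibroblast markers 2 of 7 were above it by their mean over the 6 arrays (COL1A1 and COL1A2). COL1A2 had a mean of 38.3 units in the isolates, under the filter, and 102 in parental. The list sums were 196 to 221 in the isolates and 355 to 420 in parental. Of leukocyte markers 1 of 10 with a probe set was above it by its mean over the 6 arrays (CD14). CD14 had a mean of 41.5 units in the isolates, under the filter, and 86.9 in parental. The sums of this list were 168 to 243 in the isolates and 327 to 359 in parental. PTPRC, the leukocyte common antigen, and FAP were below the filter on every array. Of endothelial markers 1 of 5 was above it (KDR), with sums of 133 to 189 in the isolates and 86.8 to 142 in parental. The fibroblast and leukocyte sums were lower in the isolates, as were IL6, IL6ST, OSMR and JAK1 below. So were the sums of the line's own markers and of the markers it should lack (559 to 658 in the isolates, 691 to 819 in parental). Most fibroblast and leukocyte markers were under the filter, where signals have no usable order. Any part of fibroblasts or leukocytes in the members' results was not tested.

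Against the parental line, IL6, IL6ST, OSMR and JAK1 fell in both isolates, whereas IL11 and STAT3 rose in both. These 6 of the 9 tested genes passed limma's test at an adjusted p of 0.05 in S1a, in S1b and in the mean of both isolates. Many genes passed in the same comparisons, 39.2% of the 7791 genes tested in S1a, 41.6% in S1b and 46.2% for the mean of both, so a share of 6 in 9 stands against a high background. Of all genes, 22.7% were higher and 23.5% lower in the mean of both isolates, against 2 higher and 4 lower among the members. The median log2 change of the 9 genes was -0.41, against -0.03 over all genes. This split depends on the scaling. After centring each array on its median, 3 members were higher and 3 lower in the mean of both isolates. In that setting 2698 of the 7791 genes were higher and 1087 lower. In S1a, 3 members were then higher and 1 lower. Arrays of the isolates did not overlap those of the parental line for 8 of the 9 genes, which held for 56.7% of all genes. Both isolates were set against the same 2 parental arrays, so their changes are not independent of each other. The levels of each gene are shown by array in the panels of signal.

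**Figure D1:**
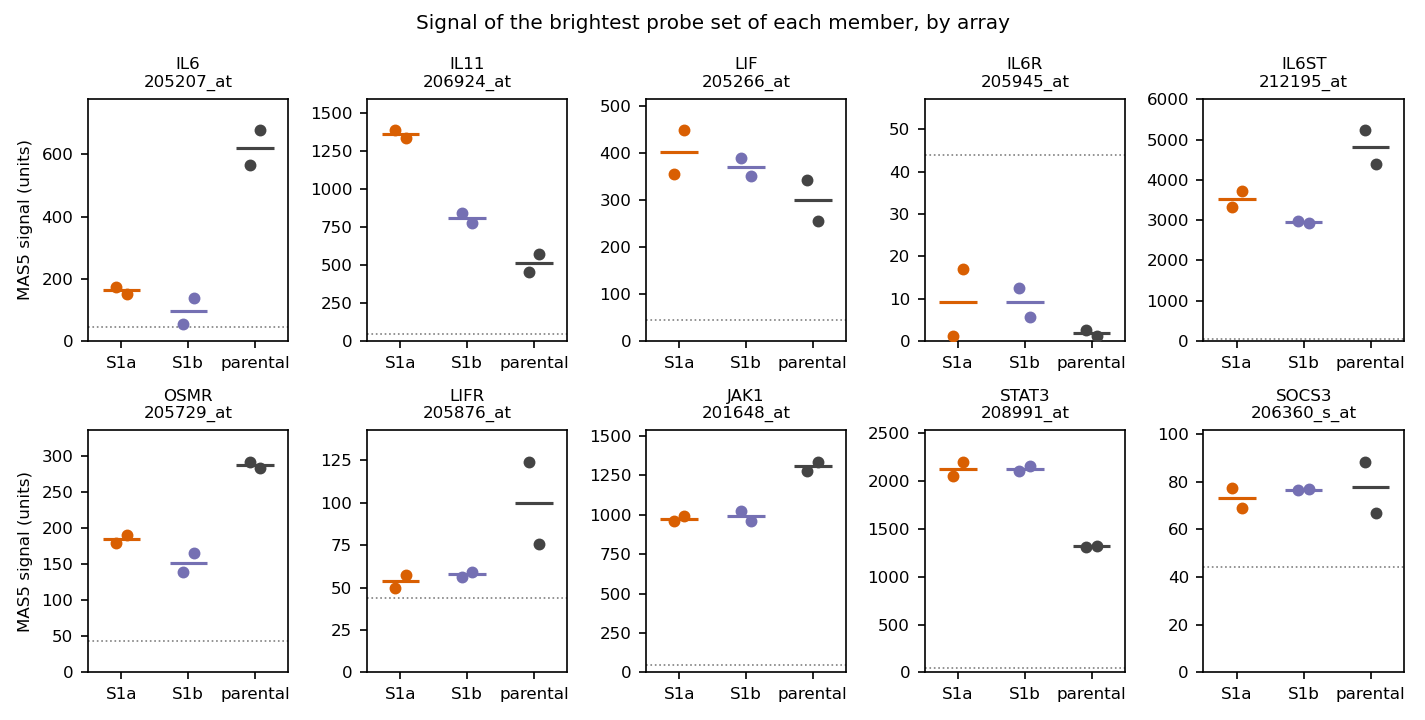
MAS5 signal (linear axis from 0, in signal units) of the brightest probe set of each of the 10 genes on the 6 arrays; points are arrays, bars the mean of 2 arrays, and the dotted line the filter at 44 units. IL6 lies between 55 and 174 on the isolates' arrays against 565 and 677 on the parental ones, STAT3 runs the other way, and IL6R is under the filter throughout.

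IL6, the cytokine that gives the family its name, had signals of 174 and 151 units in S1a and 55 and 138 in S1b, against 565 and 677 in parental. All 4 isolate arrays lay below both parental arrays. In RNA of a whole population, fewer cells that express a gene and less RNA per cell cannot be told apart. The means were 163 ± 16.6 in S1a, 96.5 ± 58.8 in S1b and 621 ± 79.2 in parental (SD, n = 2 each). On the scale of log2(signal + 3.949), IL6 fell by 2.34 ± 0.29 (SE) in the mean of both isolates (limma adjusted p = 0.000142), a ratio of 0.198. The log2 change was -1.91 ± 0.34 in S1a (adjusted p = 0.00163) and -2.77 ± 0.34 in S1b (adjusted p = 0.000153). The S1b change rests on arrays that differed, and was -2.13 without replicate 1 and -3.40 without replicate 2, past the threshold in both cases.

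IL11, which also signals through gp130 and acts on bone and haematopoietic cells, moved the other way. Its signals on the brighter probe set were 1385 and 1338 units in S1a and 845 and 777 in S1b, against 454 and 573 in parental. The 3 populations did not overlap, with S1a highest, S1b between and parental lowest. IL11 rose by 1.41 ± 0.12 in S1a (limma adjusted p = 2.55e-05) and by 0.66 ± 0.12 in S1b (adjusted p = 0.00187) on the log2 scale, and by 1.04 ± 0.11 in the mean of both (adjusted p = 4.26e-05). Its other probe set, 206926_s_at, had 238 and 338 units in S1a and 149 and 204 in S1b, against 125 and 162 in parental. On this probe set the rise passed the test in S1a (0.98 ± 0.24, adjusted p = 0.00966) and did not in S1b (0.29 ± 0.24, adjusted p = 0.376), where the arrays overlapped those of parental.

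LIF, a ligand of the LIFR and gp130 pair, had 356 and 448 units in S1a and 390 and 351 in S1b, against 343 and 255 in parental. All isolate arrays were above both parental arrays, the nearest at 351 units in S1b and 343 in parental. The log2 change of 0.38 ± 0.15 in the mean of both isolates did not pass the test (limma adjusted p = 0.0685, 95% interval 0.03 to 0.72). Under 3 other normalizations of the arrays it did, with 0.46 after quantile normalization (adjusted p = 0.0288), 0.42 after cyclic loess (0.0412) and 0.57 after centring on the median (0.00445). Its size moved with the parental array left out, and was 0.59 without parental replicate 1 (adjusted p = 0.0146) and 0.16 without parental replicate 2 (adjusted p = 0.437). It also passed without S1a replicate 1 (0.46, adjusted p = 0.0477), and in the other 13 alternatives it did not. Of the other ligands of the family, 5 of 9 had a probe set and 1 passed the filter. This was CTF1, cardiotrophin 1, at 62.6 units in the isolates and 45.3 in parental (log2 change 0.40 ± 0.36, adjusted p = 0.394). OSM, the ligand of the OSMR chain, was at 2.37 to 4.78 units in the isolates and 6.21 and 9.28 in parental, below the filter throughout.

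IL6ST, the shared chain gp130, fell on all 5 of its probe sets in both isolates; these read the same gene and are not replicates. The brightest, 212195_at, had 3328 and 3725 units in S1a and 2984 and 2930 in S1b, against 5230 and 4405 in parental. Every isolate array was below both parental arrays. Its log2 change was -0.57 ± 0.088 in the mean of both isolates (limma adjusted p = 0.000515), -0.45 ± 0.10 in S1a (adjusted p = 0.00647) and -0.70 ± 0.10 in S1b (adjusted p = 0.000449). Over the 5 probe sets, the log2 change ran from -0.85 to -0.45 in S1a and from -1.05 to -0.70 in S1b. The S1a call was lost after median centring (-0.26, adjusted p = 0.0752), without the variance trend (adjusted p = 0.0508) and without S1a replicate 1 (-0.37, adjusted p = 0.0714). Counting probe sets, 12 of the 16 members' probe sets passed in S1a, where 35.5% of all probe sets did, and 12 of 16 in S1b, where 37.9% did.

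OSMR, which pairs with gp130 to receive oncostatin M, had 180 and 191 units in S1a and 139 and 165 in S1b, against 292 and 284 in parental. The isolates' arrays were all well below the parental arrays, which differed little. The log2 change was -0.77 ± 0.15 in the mean of both isolates (limma adjusted p = 0.00239), -0.63 ± 0.18 in S1a (adjusted p = 0.0178) and -0.91 ± 0.18 in S1b (adjusted p = 0.00243). In S1a the call was lost after median centring (-0.44, adjusted p = 0.0738) and without either S1a array (-0.58 and -0.67, adjusted p = 0.104 and 0.0665).

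LIFR, the signalling chain for LIF, had 49.9 and 57.4 units in S1a and 56.3 and 59.2 in S1b, against 124 and 75.5 in parental. The isolates' arrays were below both parental arrays, but the parental arrays lay far apart. Its log2 change of -0.76 ± 0.31 did not pass the test (limma adjusted p = 0.0683, 95% interval -1.45 to -0.07). The change passed without the variance trend (adjusted p = 0.0371) and, narrowly, in the setting with the mean of probe sets (adjusted p = 0.0499). It was -1.10 without parental replicate 2 (adjusted p = 0.0314) and -0.42 without parental replicate 1 (adjusted p = 0.409). LIFR and OSMR lie next to each other on chromosome 5 among the genes tested.

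IL6R, the receptor that carries IL6 to gp130, was at 22.5 units or less on every array and both probe sets, under the filter, and was not tested. On 205945_at it had 1.06 and 17.1 units in S1a and 12.6 and 5.76 in S1b, against 2.61 and 1.18 in parental. These signals say nothing about whether the receptor protein is present. Of the other receptors of the family, 3 of 6 were tested and none passed for the mean of both isolates. IL27RA, the interleukin 27 receptor, had a log2 change of 0.63 ± 0.25 (limma adjusted p = 0.0637), which passed under 4 alternatives (0.77 to 0.82). In S1b alone it passed (0.85, adjusted p = 0.0395), a call lost under 7 alternatives and with no rise (-0.08) in the mean of its probe sets. IL11RA, which binds IL11, had 0.48 ± 0.40 (adjusted p = 0.356), with 1.10 without parental replicate 1 (adjusted p = 0.05, just past the threshold) and -0.15 without parental replicate 2, and CNTFR, the receptor of ciliary neurotrophic factor, had 0.04 ± 0.35 (adjusted p = 0.932).

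**Figure D2:**
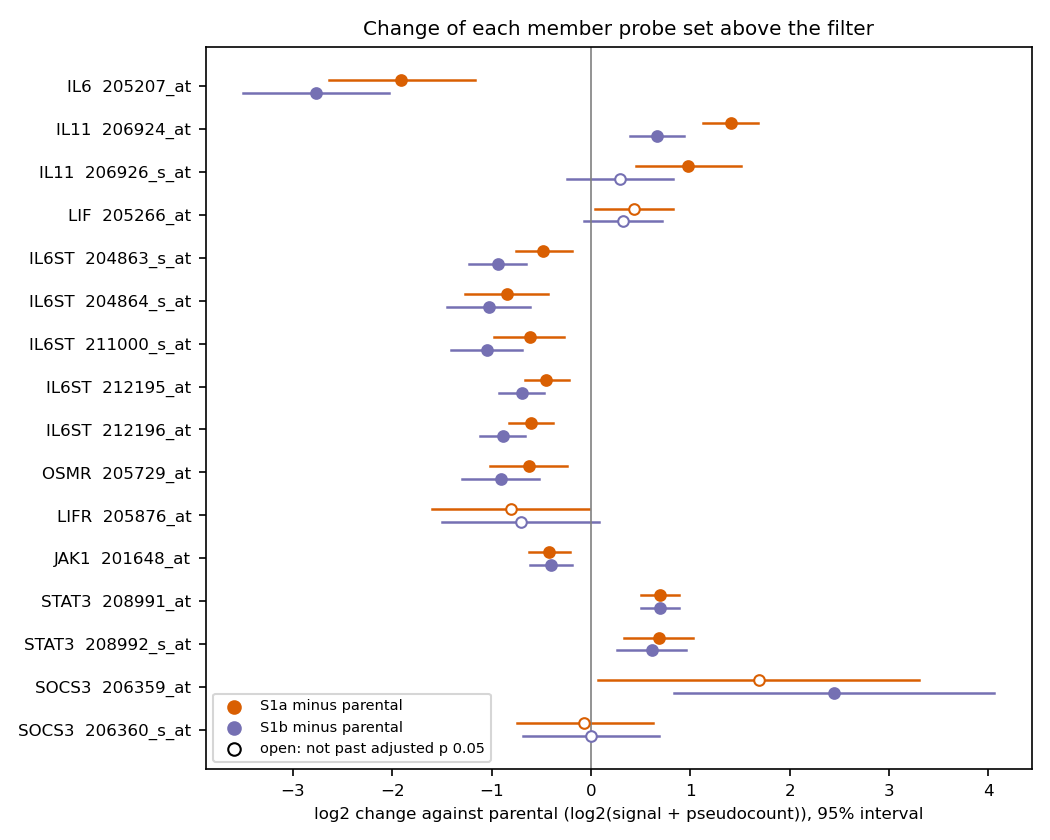
Log2 change with its 95% interval (x axis) of the 16 member probe sets above the filter, for S1a minus parental (upper of each pair) and S1b minus parental (lower); filled points passed an adjusted p of 0.05. All 5 IL6ST probe sets lie below 0 and both STAT3 probe sets above it, while the SOCS3 probe sets differ from each other.

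JAK1, the kinase bound to gp130, had 959 and 992 units in S1a and 1022 and 960 in S1b, against 1278 and 1334 in parental. The 4 isolate arrays lay together, below both parental arrays. Its log2 change was -0.41 ± 0.079 in the mean of both isolates (limma adjusted p = 0.00203), -0.42 ± 0.091 in S1a (adjusted p = 0.0051) and -0.40 ± 0.091 in S1b (adjusted p = 0.00612). Centring each array on its median moved the median change of all genes by 0.19, to 0.16, and the JAK1 change to -0.22 (adjusted p = 0.085). In that setting 2698 genes were higher and 1087 lower in the mean of both isolates, against 1771 and 1829 in the scaling as deposited. JAK1 then passed in neither isolate (adjusted p = 0.125 in S1a and 0.165 in S1b).

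STAT3, the transcription factor of the pathway, had 2054 and 2199 units in S1a and 2100 and 2154 in S1b, against 1312 and 1324 in parental, on 208991_at. The isolates' arrays were all well above the parental ones, and the 2 isolates had the same mean of 2127 units. STAT3 rose by 0.69 ± 0.083 on the log2 scale in S1a (limma adjusted p = 0.000191) and by 0.69 ± 0.083 in S1b (adjusted p = 0.00015), a ratio of 1.61 for the mean of both. The other probe set, 208992_s_at, had 1316 and 1201 units in S1a and 1148 and 1250 in S1b, against 646 and 949 in parental. It rose by 0.68 in S1a (adjusted p = 0.00704) and by 0.61 in S1b (adjusted p = 0.0113). On this probe set the calls were lost without the variance trend (adjusted p = 0.0618 in S1a and 0.075 in S1b), and that of S1b also without S1b replicate 2 (0.55, adjusted p = 0.08). These are RNA levels, and phosphorylation of STAT3 was not measured.

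SOCS3, the feedback inhibitor induced by STAT3, gave probe sets that disagree. On 206360_s_at, the brightest, it had 77.4 and 69.1 units in S1a and 76.4 and 76.8 in S1b, against 88.2 and 67 in parental. The populations overlapped, and the log2 change of -0.04 ± 0.27 did not pass the test (limma adjusted p = 0.923, 95% interval -0.63 to 0.56). On 206359_at it had 60.7 and 61.9 units in S1a and 90.6 and 125 in S1b, against 48.9 and 3.82 in parental. That probe set passed in S1b (2.45 ± 0.73, adjusted p = 0.0232) and did not in S1a (1.69 ± 0.73, adjusted p = 0.0973). Without parental replicate 2, the array at 3.82 units, the S1b change was 1.06 (adjusted p = 0.0513), and without parental replicate 1 it was 3.83 and the S1a change passed (3.07, adjusted p = 0.000783). The S1b call was also lost with no filter (adjusted p = 0.0555), without the variance trend (0.0898) and without either S1b array (0.082 and 0.135), and S1a passed after median centring (1.88, adjusted p = 0.0428). A further probe set, 214105_at, was at 12.3 to 22.5 units in the isolates and 14.5 and 5.31 in parental, under the filter.

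Between the isolates, 1 of the 9 genes passed the test, IL11, where 1.89% of all genes did. IL11 was lower in S1b than in S1a by a log2 difference of -0.75 ± 0.12 (S1b minus S1a, limma adjusted p = 0.0174), with 845 and 777 units in S1b and 1385 and 1338 in S1a. Its other probe set gave -0.69 (adjusted p = 0.218). The call was lost with the mean of both probe sets (-0.72, adjusted p = 0.0764), without the variance trend (adjusted p = 0.188) and without any 1 of the 4 isolate arrays (-0.81 to -0.69, adjusted p = 0.0964 to 0.143). IL6 differed by -0.86 ± 0.34 (adjusted p = 0.256, 95% interval -1.61 to -0.11), and IL6ST by -0.25 ± 0.10 (adjusted p = 0.277, 95% interval -0.48 to -0.03). The STAT3 difference was 0.00 ± 0.083 (95% interval -0.18 to 0.19), and that of JAK1 was 0.02 (95% interval -0.18 to 0.22). Arrays of S1b and S1a did not overlap for 4 of the 9 genes, near the 49.6% of all genes.

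The remaining genes of the pathway were taken as 8 lists with 116 genes. Their counts stand beside the 22.7% of all genes that were higher and the 23.5% that were lower in the mean of both isolates. Among other kinases and STATs, none of 7 tested genes rose and 2 fell in the mean of both isolates, with a median log2 change of -0.11. STAT4, which serves interleukin 12, fell by 1.11 ± 0.29 (limma adjusted p = 0.0109), at 48.2 units in the isolates and 108 in parental, and was lost without parental replicate 1 (-0.99, adjusted p = 0.0665). TYK2, a Janus kinase that also binds gp130, passed narrowly (-0.36 ± 0.13, adjusted p = 0.0498) and was lost under 12 alternatives. JAK2 had a change of 0.60 ± 0.42 (adjusted p = 0.272), with parental arrays far apart at 23.4 and 63.3 units. Over the alternatives the JAK2 change ran from -0.05 to 1.25, the latter without parental replicate 2.

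Among adaptors and the MAP kinase branch, 2 of 11 tested genes rose and 1 fell, with a median of 0.17. PTPN11, the phosphatase SHP2 that links gp130 to this branch, rose by 0.56 ± 0.069 (limma adjusted p = 0.000133), at 6186 units in the isolates and 4195 in parental. GRB2, its adaptor partner, rose by 0.59 ± 0.11 (adjusted p = 0.00144), at 797 units in the isolates and 525 in parental. The adaptor SHC1 fell by 0.42 ± 0.081 (adjusted p = 0.00204), which was lost after median centring (-0.23, adjusted p = 0.0759).

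Among negative regulators, 3 of 13 tested genes rose and 4 fell, with a median of 0.02. SOCS5 rose by 0.61 ± 0.099 (limma adjusted p = 0.000764), at 700 units in the isolates and 457 in parental, and PTPN2, a phosphatase of STATs, rose by 0.51 ± 0.095 (adjusted p = 0.00165). SOCS6 fell by 1.17 ± 0.25 (adjusted p = 0.00363) and the phosphatase PTPRE by 0.67 ± 0.14 (adjusted p = 0.00278). SOCS1, also among the 4 that fell, was at 36.7 units in the isolates and 113 in parental. It passed the filter only through the parental arrays. The members of this list thus moved in both directions. Of the 4 genes for receptor shedding, 1 rose and 2 fell, with a median of -0.44. ADAM10, a protease that cuts receptors from the cell surface, fell by 0.74 ± 0.073 (adjusted p = 3.47e-05), at 2235 units in the isolates and 3709 in parental. ADAM17, the protease best known for shedding the IL6 receptor, rose by 0.38 ± 0.097 (adjusted p = 0.00963), which was lost with the mean of its probe sets (0.30, adjusted p = 0.0539). RHBDF2, which brings ADAM17 to the cell surface, fell by 0.77 ± 0.22 (adjusted p = 0.0149), which was lost without parental replicate 2 (-0.75, adjusted p = 0.0542).

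Of genes known to respond to STAT3, 4 of 25 tested rose and 10 fell, with a median of -0.28 against -0.03 for all genes, of which 22.7% rose and 23.5% fell. After quantile normalization the median was 0.06, and after median centring it was -0.09 with 6 higher and 8 lower, where 2698 of all 7791 genes were higher and 1087 lower. VEGFA, the vascular growth factor, fell by 1.57 ± 0.078 (limma adjusted p = 3.84e-07), at 1355 units in the isolates and 4023 in parental. TIMP1, an inhibitor of metalloproteinases, fell by 1.14 ± 0.089 (adjusted p = 7.65e-06), at 4068 units in the isolates and 8984 in parental. CEBPD, a transcription factor of the acute phase response, fell by 1.86 ± 0.17 (adjusted p = 2.31e-05), at 139 units in the isolates and 508 in parental. Its relative CEBPB rose by 0.68 ± 0.081 (adjusted p = 0.000102), at 3443 units in the isolates and 2135 in parental. MUC1, counted among the 10 that fell, was at 42.4 units in the isolates, under the filter, and 297 in parental. These genes answer to many other factors, so the list describes RNA levels and does not measure STAT3 activity.

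Of regulators of IL6 transcription and mRNA, 2 of 22 tested genes rose and 7 fell, where 22.7% of all genes were higher and 23.5% lower. Their median was -0.14, against -0.03 for all genes. After median centring 6 of the list rose and 4 fell, with a median of 0.06, where 2698 of all 7791 genes were higher and 1087 lower. IL1R1, the interleukin 1 receptor, fell by 2.30 ± 0.27 (limma adjusted p = 9.52e-05), at 43.4 units in the isolates and 225 in parental, so its isolate mean is under the filter and the size depends on the pseudocount. CEBPB and CEBPD are also on this list, with the values above. FOSL1, an AP-1 subunit, rose by 0.45 ± 0.069 (adjusted p = 0.000481), at 3681 units in the isolates and 2680 in parental.

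**Figure D3:**
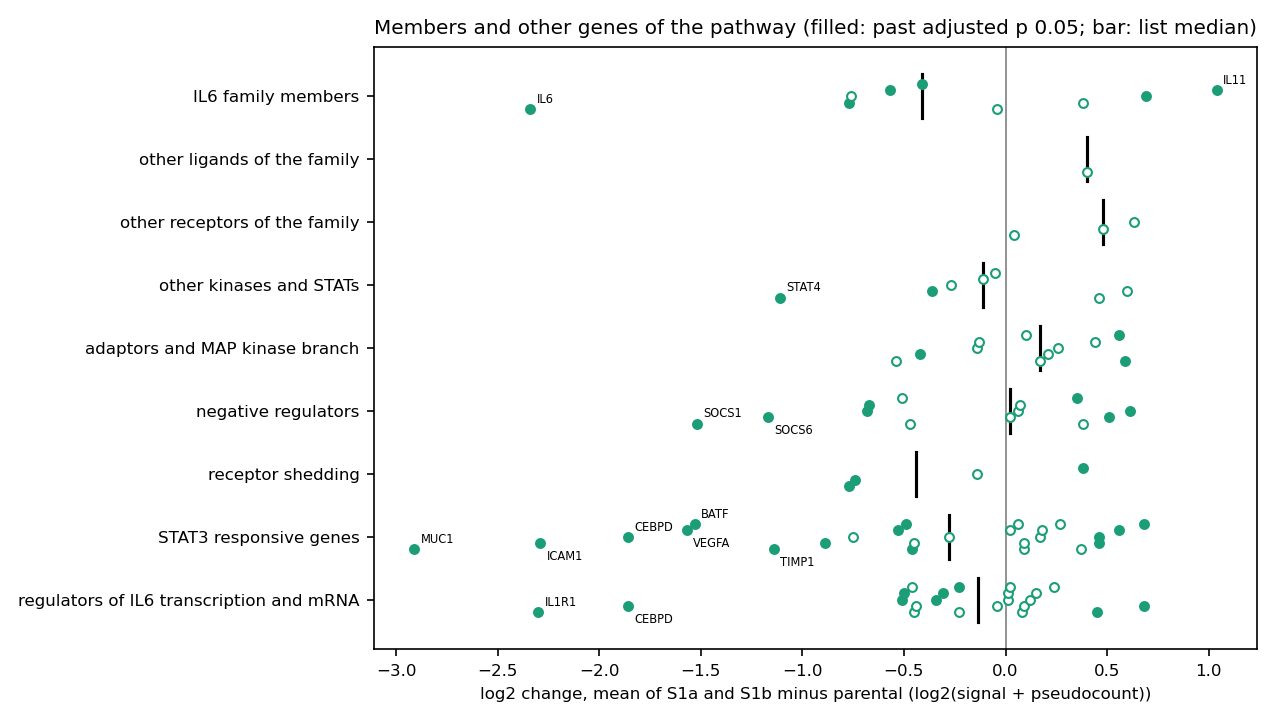
Log2 change in the mean of S1a and S1b minus parental (x axis) of each tested gene in the members and the 8 pathway lists (rows); filled points passed an adjusted p of 0.05, bars mark medians, and genes beyond a log2 change of 1 are named. The lists of other ligands, with 1 tested gene, and of other receptors, with 3, held positive changes alone, and the remaining lists held both signs, with medians between -0.44 for receptor shedding and 0.48 for other receptors.

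The tested genes whose centred log2 values over the 6 arrays lay nearest to those of IL6 were EHF, KLF13 and IL1R1, at Euclidean distances of 0.59, 0.76 and 0.78. EHF, an epithelial transcription factor of the ETS family, had 43.2 and 45.9 units in S1a and 19.1 and 39 in S1b, against 196 and 158 in parental. All 3 genes passed the filter through the parental arrays, with isolate means under 44 units, so the order of their distances rests on dim signals. The nearest to IL6ST were SMAD4, MAN2C1 and UQCR11 (0.14, 0.14 and 0.15), and SMAD4, the shared mediator of TGF-beta signals, had 356 and 387 units in S1a and 306 and 328 in S1b, against 532 and 494 in parental. The nearest to STAT3 were LARS1, CTNNBL1 and NABP2 (0.06, 0.07 and 0.08), and LARS1, the leucyl-tRNA synthetase, had 1493 and 1671 units in S1a and 1546 and 1585 in S1b, against 986 and 997 in parental. The smaller distances of STAT3 and IL6ST go with their smaller changes, so the 3 sets of distances cannot be ranked against each other.

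The 3 nearest tested genes on each side of a member along the chromosome, a comparison chosen after the data were seen, gave no single pattern. Among all genes, 22.7% were higher and 23.5% lower. Around JAK1 on chromosome 1, which fell, 4 of 6 neighbours fell and none rose, among them ROR1 (-1.86), PGM1 (-0.79), AK4 (-0.79) and LEPROT (-0.66). Around IL6ST on chromosome 5, which fell, 3 of 6 rose and none fell. Around IL11 on chromosome 19, which rose, 3 of 6 rose and none fell. Around IL6 on chromosome 7 and around STAT3 on chromosome 17, 1 of 6 rose and 1 fell, as around LIFR on chromosome 5, which did not pass. Around OSMR and LIF, 1 of 6 rose and none fell. OSMR and LIFR are counted among each other's neighbours, and the gene around LIFR that fell is OSMR. Around SOCS3 on chromosome 17, 3 of 6 rose and none fell, and around IL6R on chromosome 1, 3 of 6 fell and none rose.

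With the brightest probe set standing for each gene unless a setting says otherwise, IL6, IL11 and STAT3 kept their calls against the parental line under all 18 alternative settings, in each isolate and in the mean of both. For the mean of both isolates, the log2 change lay between -2.65 and -2.02 for IL6, between 0.83 and 1.23 for IL11 and between 0.65 and 0.88 for STAT3. IL6ST (-0.76 to -0.38) and OSMR (-0.83 to -0.58) also kept theirs for the mean. JAK1 lost its call in 1 of the 18, and LIF and LIFR gained one in some.

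**Figure D4:**
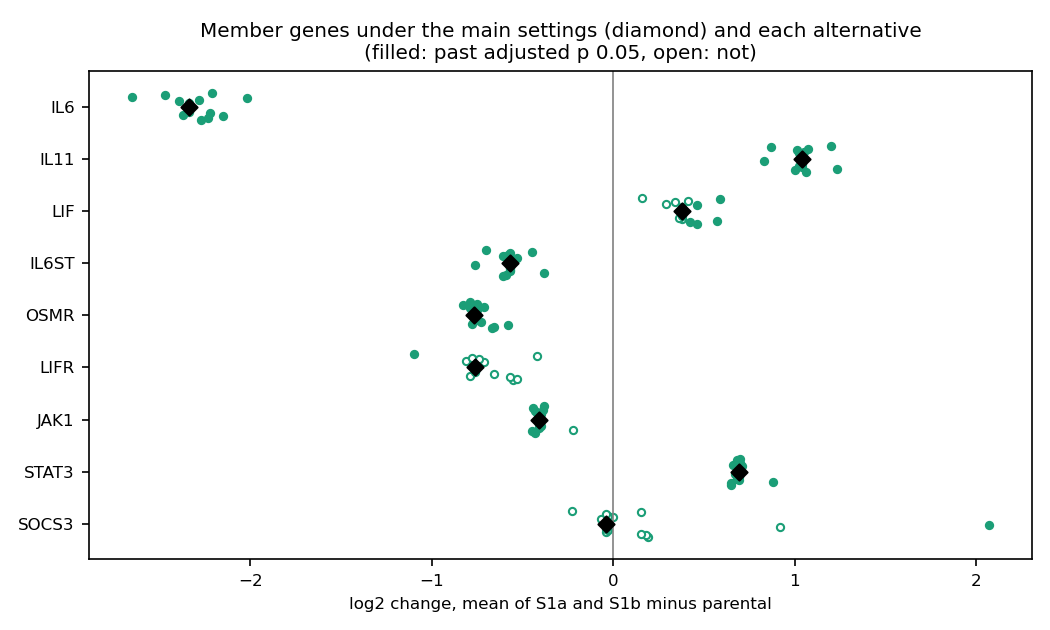
Log2 change in the mean of S1a and S1b minus parental (x axis) of the 9 tested genes under the settings used (diamonds) and under each of the 18 alternatives, 17 for LIFR and SOCS3, which the filter at the 60th percentile leaves out (circles, filled where an adjusted p of 0.05 was passed). IL6 stays between -2.65 and -2.02 and STAT3 between 0.65 and 0.88, while SOCS3 lies near 0 except where its other probe set enters.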

How the data were processed

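Biotin-labelled total RNA of S1a, S1b and parental MDA-MB-231 was hybridised to 6 Affymetrix arrays. The deposited values are linear intensity signals, 1 per probe set on each array. MAS5 was the software, per the submitters' processing notes, and its version is not stated there. In the deposited values every array had a mean of 500.2 after 2% of signals were trimmed from each end. Medians were 87.6 to 91.7 in the isolates and 98.6 and 106 in parental. No scanner file or detection call was used. The number of arrays limits the precision.

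The annotation gave 1 symbol for 19064 probe sets, several for 1043 and none for 2108, and 62 were controls. For 19052 of the 19064 probe sets with 1 symbol, the gene identifier was found in a RefSeq gene table (GRCh38.p14), and the symbol given there was used. Where a gene had several probe sets, the one brightest on average over the 6 arrays stood for it. Signals were taken as log2(signal + 3.949), the 10th percentile of all signals, so changes of dim genes are understated. Probe sets with a mean under the 40th percentile (44 units) were dropped, leaving 7791 genes. The 3 group means were fitted to all 6 arrays with limma 3.58.1 (R 4.3.3, variance trend). Each gene had 1 estimate of spread for the 3 groups, with 3 residual degrees of freedom and a median of 7 drawn from other genes. The SE of a gene is therefore the same in S1a and S1b, whatever the SD of each. The p-values were adjusted by Benjamini-Hochberg over all genes, with a threshold of 0.05. Every probe set was also fitted on its own, over 11860.

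All 10 genes were named, and up to 4 genes of each list with the smallest p when both isolates together were set against parental. Beside these, OSM, SOCS1, MUC1 and the genes neighbouring members were named after their values were seen. Members and lists were chosen with earlier results of these data known. Alternatives were other normalizations, pseudocounts of 1 and 16, no filter or one at the 60th percentile, other choices of probe set, no variance trend, array weights, a replicate block and leaving out each array.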

Additional observations from a re-analysis of the deposited data

Results flagged for a closer look

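IL11 is given a closer look because its change against the parental line differed between the isolates in a direct test of S1b against S1a. The log2 difference, S1b minus S1a, was -0.75 ± 0.12 (limma adjusted p = 0.0174, 95% interval -1.02 to -0.47). Mean signals were 811 ± 48 units in S1b and 1362 ± 33.9 in S1a (SD, n = 2 each), against 513 ± 83.7 in parental. Both S1b arrays were below both S1a arrays. The call was lost without any 1 of the 4 isolate arrays, where the difference was -0.81 to -0.69. It was also lost with the mean of both probe sets (-0.72, limma adjusted p = 0.0764) and without the variance trend (adjusted p = 0.188). The other probe set, 206926_s_at, gave -0.69 (adjusted p = 0.218).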

How the results depend on the processing

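Of 640 values of members under the alternatives, 609 stayed on their side of the threshold, 15 lost a call, 14 gained one in the same direction and 2 gained one with the other sign. These 2 were SOCS3 without shared-probe suffixes, 2.45 in S1b (limma adjusted p = 0.0253) and 2.07 in the mean of both isolates (adjusted p = 0.0257), where 206359_at stands for the gene. Values that passed in neither setting also changed sign, among them SOCS3 in S1a (-0.26 to 1.69) and, for S1b minus S1a, LIF (-0.27 to 0.06) and JAK1 (-0.02 to 0.07). Among list genes, IL27RA in S1b was -0.08 with the mean of its probe sets, against 0.85. Without shared-probe suffixes, 1731 genes passed in S1a, 1889 in S1b and 2055 in the mean of both, of 4767 tested, against 3057, 3244 and 3600; fewer genes were tested there. For S1b against S1a, 147 genes passed, against 63 with no filter, 60 with the mean of probe sets, 58 without shared-probe suffixes, 4 without the variance trend, 320 with array weights and 64 with the replicate block; the cause was not tested. Leaving out each array gave 1900 to 2920 genes in S1a, 2223 to 3151 in S1b, 3016 to 3295 in the mean of both and 22 to 343 in S1b against S1a. Members passing in S1b against S1a were 0 by limma with the mean of probe sets (3 at an unadjusted p of 0.05), 0 without the variance trend (1 unadjusted), and 0 to 1 when an array was left out. Same-numbered arrays did not deviate together (correlations of -0.0675 to -0.0046 over 7791 genes). These correlations leave out any shift shared by all genes of an array, and the titles give only the numbers. Whether same-numbered arrays were handled together is not known. With the replicate block 6, 6, 6 and 1 members passed in S1a, S1b, the mean of both and S1b against S1a, as without it. The 2 arrays a population limit the precision, and signals under 44 units have no usable order.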
